A study of Homo sapiens with 6 samples.

Results

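FAM111A and FAM111B are the members of a small family of human proteases, and their transcripts were followed in HCT116 cells with and without oxaliplatin. Both genes were taken from the deposited table by their symbol, as 2 of the 27942 genes it lists, and both passed the filter on low counts that left 13727 genes. The pair was chosen by symbol with its fold changes between treated and untreated cells in these same libraries already known, so their levels and fold changes in that comparison are a description and no test is given for them. HCT116 is an established human colorectal carcinoma line, with wild-type p53 and a mutated CTNNB1 according to the study's methods. In the group OXA, 3 cultures received 0.5 µM oxaliplatin, a platinum drug that crosslinks DNA, for 24 h. In the group NT, 3 cultures of the same line received no drug, and no vehicle is stated. Polyadenylated RNA of each culture was sequenced as 1 library, and nothing in the labels says whether the cultures of a group were grown on separate occasions, so the errors given measure the spread between these libraries.

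FAM111A is a serine protease with a trypsin-like domain that binds PCNA, the sliding clamp of DNA replication, and it is known for helping replication forks past proteins trapped on DNA, among them TOP1 and PARP1. FAM111B is its paralogue with the same type of protease domain, and its cellular role is less well described. The expression of both genes is known to vary with the cell cycle, whose phases were not measured in these libraries. Inherited mutations of FAM111A cause Kenny-Caffey syndrome and osteocraniostenosis, and those of FAM111B a fibrosing poikiloderma.

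Both genes lie on the plus strand of chromosome 11 of GRCh38, next to each other. FAM111B (ENSG00000189057) spans chr11:59107185-59127412 and FAM111A (ENSG00000166801) chr11:59142748-59155039 in GENCODE 44, with 15335 bases between them. FAM111A has 18 annotated transcripts and FAM111B 6. The MANE transcript, the reference isoform shared by Ensembl and RefSeq, has 6 exons and 3989 bases for FAM111A and 4 exons and 3506 bases for FAM111B. The annotated transcripts of both genes had no stretch of 31 bases in common.

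RefSeq promoter windows, which run from 250 bases before to 50 bases after a start, were matched by symbol for 1 of the 2 genes, FAM111A, at both of its starts. These windows are shown because many replication genes are known to be bound by E2F factors or by the DREAM complex, whose known letters can be looked for. The windows were searched on both strands for E2F letters (TTTCCCGC, TTTCGCGC, TTTGCCGC or TTTGGCGC), the cell cycle homology region, or CHR (TTTGAA or TTCGAA), the letters CCAAT and the GC box (GGGCGG). Capitals mark an E2F or CHR match. The first window is shown as its part upstream of all annotated FAM111A transcripts, chr11:59142606-59142747 on the plus strand of GRCh38.p14. This window belongs to the start at 59142856, where the MANE transcript begins. The part shown lies within the annotated body of FAM111A-DT, a long noncoding RNA on the minus strand (chr11:59130133-59143015). The first window held none of the 4.
FAM111A first start: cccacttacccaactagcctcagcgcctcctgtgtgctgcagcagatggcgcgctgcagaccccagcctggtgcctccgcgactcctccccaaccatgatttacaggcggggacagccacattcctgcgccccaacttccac
The second window belongs to the start at 59144862, which is 2006 bases downstream of the first. Only 2 annotated FAM111A transcripts start within 50 bases of this second start, against 8 for the first. Exons of 6 other FAM111A transcripts cover the second start. The second window held CCAAT from base 133 before its start and the CHR letters on the opposite strand 92 to 87 bases before it. It also held the E2F letters 65 to 58 bases before the start, overlapped by a GC box on the opposite strand. The CHR and E2F matches are shown with the bases around them on the plus strand, from chr11:59144763-59144782 and chr11:59144791-59144810.
FAM111A second start, CHR letters: cgggcgaTTCAAAcccctag
FAM111A second start, E2F letters: gctccgTTTCCCGCccagct
Of all 35116 RefSeq windows of the same length, 3.31% held the E2F letters, 16.4% the CHR letters, 34.6% CCAAT and 45.0% the GC box, and 0.427% held both E2F and CHR letters. A match is a description of the sequence and no site of binding was measured, nor do gene counts tell which start was used.

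After oxaliplatin, FAM111B stood at 32.0% of its untreated level and FAM111A at 63.7%, and in neither gene did the groups overlap. FAM111A had 1845, 1478 and 1822 raw counts in NT libraries 1 to 3 and 998, 887 and 1334 in OXA libraries 1 to 3. Normalized for library size by TMM, these were 1886, 1536 and 1663 in NT and 1080, 967 and 1189 in OXA. The lowest untreated library was thus 1.29 times the highest treated one. The group means were 1695 ± 177 in NT and 1079 ± 111 in OXA (normalized counts, mean ± SD, n = 3), a log2 fold change of -0.65 (standard error 0.12) in edgeR's fit across all genes.

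FAM111B had 1545, 1144 and 1419 raw counts in NT libraries 1 to 3 and 428, 368 and 488 in OXA libraries 1 to 3. After normalization it had 1579, 1189 and 1295 in NT and 463, 401 and 435 in OXA. The gap between the groups was wider than in FAM111A, as the lowest untreated library was 2.57 times the highest treated one. The means were 1354 ± 202 normalized counts in NT and 433 ± 31 in OXA (n = 3), a log2 fold change of -1.64 (standard error 0.14). Counting error was at most 3.36% of a FAM111A count and 5.21% of a FAM111B count. The spread between libraries was larger, with a coefficient of variation of 10.5% in NT and 10.3% in OXA for FAM111A and of 14.9% and 7.15% for FAM111B.

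**Figure D1:**
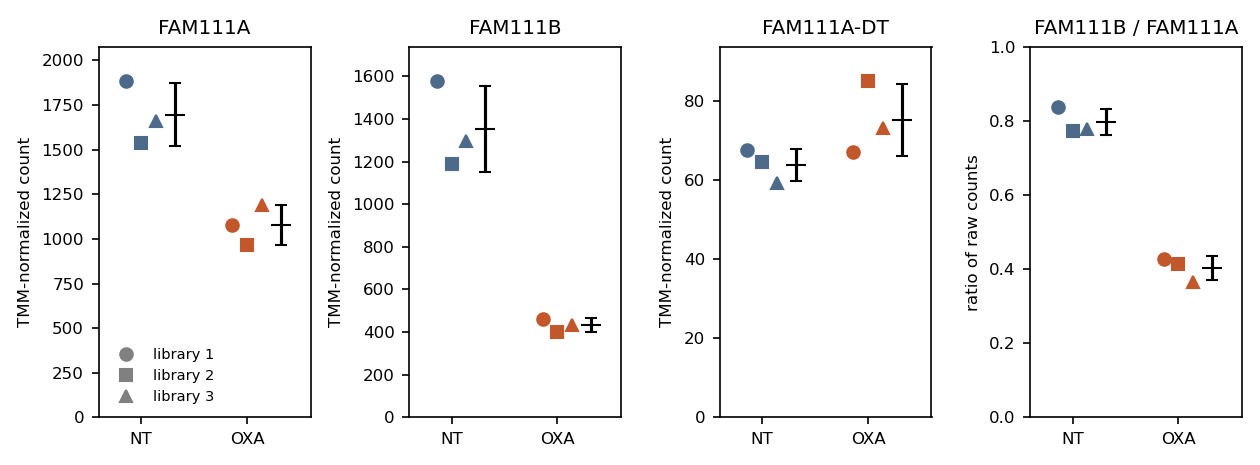
TMM-normalized counts of FAM111A, FAM111B and the neighbouring transcript FAM111A-DT, and the ratio of FAM111B to FAM111A raw counts, in each of the 3 NT and 3 OXA libraries, with the mean and SD beside the points and all axes from 0. Every OXA library lies below every NT library for FAM111A, FAM111B and their ratio, whereas the groups overlap for FAM111A-DT.

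Among the 13727 genes tested, 12 had a log2 fold change below that of FAM111B (0.0874%) and 419 one below that of FAM111A (3.05%). In the same genes, 2.29% were lower and 2.78% higher in OXA at an edgeR adjusted p under 0.05, together 5.07%, and in 14.4% every OXA library lay below every NT library. These shares are the background of the comparison that chose the genes, and nothing is read from them for FAM111A and FAM111B. The same-numbered libraries of NT and OXA gave log2 differences of -0.80, -0.67 and -0.48 for FAM111A and of -1.77, -1.57 and -1.57 for FAM111B. OXA was thus the lower one in all 3 numbered pairs for both genes. NT library 1 stood furthest from the others of its group across all genes, with a chi-square per gene of 83.1 and 75.7 against NT libraries 2 and 3, where other pairs within a group had 19.2 to 29.6. It also had the highest normalized count of both genes. Without it, the log2 fold change was -0.57 for FAM111A and -1.52 for FAM111B.

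Since both genes were counted in the same libraries, their ratio does not depend on library size. Raw counts of FAM111B divided by those of FAM111A gave 0.837, 0.774 and 0.779 in NT libraries 1 to 3. The ratio was 0.429, 0.415 and 0.366 in OXA libraries 1 to 3. The ratio was thus lower in every OXA library than in every NT library, and the mean log2 ratio went from -0.33 ± 0.063 to -1.31 ± 0.12 (SD, n = 3), a decrease of the ratio by 1.98-fold. The numbered pairs gave differences of -0.97, -0.90 and -1.09 in the log2 ratio.

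The order of both levels per length in untreated cells depended on the transcript length used. With the longest coding transcript (6189 bases for FAM111A and 3506 for FAM111B), FAM111B had 10.7 ± 1.6 RPKM (reads per kilobase of transcript, scaled to library size) in NT and FAM111A 7.61 ± 0.796. After treatment, FAM111B had 3.43 ± 0.245 RPKM and FAM111A 4.84 ± 0.497 by the same lengths, so the order was turned. The ratio of the level of FAM111B to that of FAM111A was 1.41 ± 0.062 in NT and 0.712 ± 0.058 in OXA by these lengths. By the MANE transcripts it was 0.907 ± 0.040 in NT and 0.459 ± 0.038 in OXA. FAM111B thus stood below FAM111A in all 3 OXA libraries by either length, whereas in NT it stood above it by one length and below it by the other. Among all genes tested, the level per length of FAM111A was at percentile 53.3 in NT and 42.5 in OXA, and that of FAM111B at percentile 61.8 and 35.7, with the longest coding transcript of each gene.

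Within each group, the deviations of both genes from their group mean had the same sign in every library, though some were too small to resolve. In NT, the deviations in log2 CPM were 0.16, -0.14 and -0.022 for FAM111A and 0.23, -0.18 and -0.054 for FAM111B in libraries 1 to 3. In OXA they were 0.0068, -0.15 and 0.15 for FAM111A and 0.099, -0.11 and 0.0083 for FAM111B. For FAM111A in NT library 3 and OXA library 1, the deviation was smaller than the counting error (2.34% and 3.17% of the count). The same held for FAM111B in OXA library 3 (4.53%), so these signs are not resolved. How often other pairs of genes share their signs in this way was not tested. The median of 48 genes of the G1/S transition deviated by 0.15, -0.093 and -0.060 in NT and by 0.050, -0.11 and 0.085 in OXA. The deviations of FAM111A, FAM111B and the median of these genes were thus positive in NT library 1. They were negative in NT library 2 and OXA library 2. The median does not speak for every gene of the list, as MCM5 had its lowest untreated raw count in NT library 1 (3673, against 6916 and 7631). In bulk RNA, fewer cells in S phase and less RNA per cell cannot be told apart.

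A list of 48 genes of the G1/S transition was set beside FAM111A and FAM111B, and 34 of them fell after oxaliplatin. All 48 were tested, 34 were lower and 0 higher at an edgeR adjusted p under 0.05, and 14 were not called, where 2.29% of all genes tested were lower. The median log2 fold change of the list was -0.71, against 0.023 for all genes tested. In 41 of the 48 every OXA library lay below every NT library, where this held for 14.4% of all genes tested. The lists described here were written from general knowledge with earlier results of these data known, and some genes stand on more than 1 list. FAM111A lay inside the range of this list, with 27 of the 48 genes having a lower log2 fold change. FAM111B lay below all 48, whose lowest log2 fold change was -1.17.

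That lowest value belonged to CCNE2, which encodes cyclin E2, an activator of CDK2 at the entry into S phase. Raw counts of CCNE2 were 1439, 1124 and 1442 in NT libraries and 553, 464 and 726 in OXA libraries, without overlap (log2 change -1.17 with a standard error of 0.14, adjusted p = 0.00615 by edgeR). FEN1, the flap endonuclease that trims Okazaki fragments, went from 8311 ± 166 to 4646 ± 274 normalized counts (log2 change -0.84, adjusted p = 0.00345 by edgeR). MCM4, a subunit of the replicative helicase, changed by -0.82 on the log2 scale (adjusted p = 0.00365 by edgeR). These 3 genes stayed past the threshold when any single library was left out. The count of the list did not: it was 21 without NT library 3, and 5, 10 and 18 without OXA libraries 1, 2 and 3. Among all genes tested, 69, 19, 32 and 67 were lower in the same fits, against 315 with all libraries. The list's median stayed between -0.78 and -0.66 in these fits. In the paired fit, which takes the replicate number as a block, 44 of the 48 were lower, beside 10.9% of all genes tested. The other 4, named after their values were seen, were PCNA, TYMS, CCNE1 and TIPIN, with edgeR adjusted p between 0.102 and 0.775 in that fit.

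PCNA, the partner through which FAM111A reaches the fork, was not called. Its raw counts of 10776, 9181 and 10612 in NT overlapped with the 9177, 8322 and 11561 in OXA (log2 change -0.045 with a standard error of 0.096, adjusted p = 0.83 by edgeR). The small difference of PCNA changed its sign without NT library 1 (0.023) or OXA library 2 (0.0056). Of 39 genes for PCNA and proteins that bind, load or modify it, 13 were lower and 2 higher at an edgeR adjusted p under 0.05, and 24 were not called. The shares over all genes tested were 2.29% lower and 2.78% higher. The list's median log2 fold change was -0.43. Among those that fell were FEN1 and UNG, the uracil-DNA glycosylase (log2 change -0.84, adjusted p = 0.00802 by edgeR). UNG missed the threshold without OXA library 1, with an edgeR adjusted p of 0.0587.

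The 2 that rose were CDKN1A and POLH, both known targets of p53. CDKN1A encodes p21, an inhibitor of cyclin-dependent kinases that also binds PCNA (log2 change 2.93, adjusted p = 0.000445 by edgeR). POLH encodes the translesion polymerase eta, which copies past platinum adducts, and went from 1002 ± 96.1 to 2106 ± 193 normalized counts (log2 change 1.07, adjusted p = 0.00451 by edgeR). The number of lower genes in this list was 7 without NT library 3 and 1, 2 and 4 without OXA libraries 1, 2 and 3. Lower genes among all tested then numbered 69, 19, 32 and 67, against 315 with all libraries. The list had 23 lower genes in the paired fit. In that fit, 10.9% of all genes tested were lower and 12.1% higher.

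**Figure D2:**
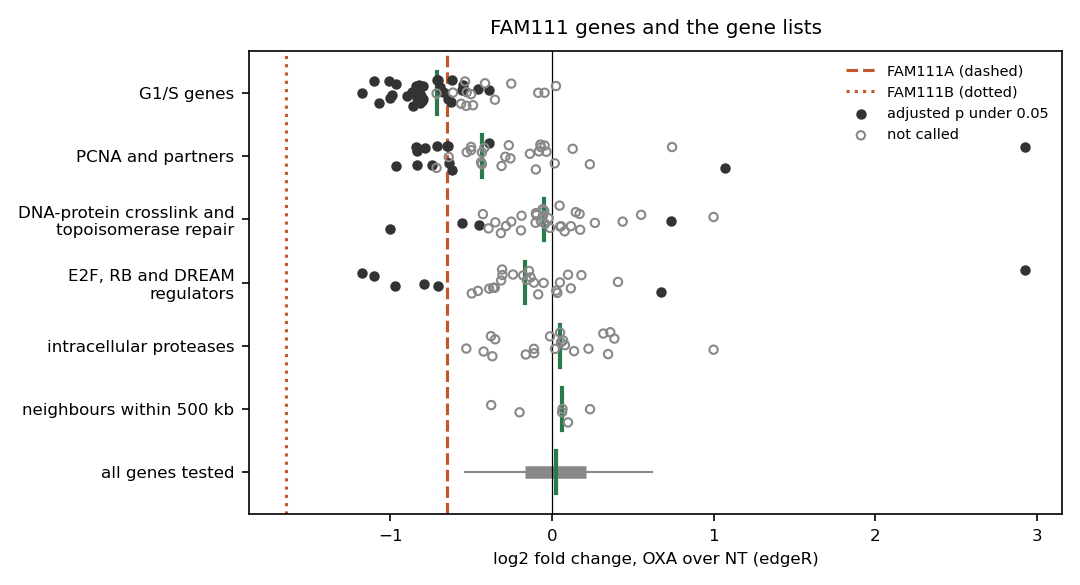
Log2 fold change of OXA over NT for the tested genes of each list (points, filled where the edgeR adjusted p is under 0.05) with the list's median as a green bar, and below them the median, percentiles 25 to 75 (thick bar) and percentiles 5 to 95 (thin bar) of all 13727 genes tested. The dashed line of FAM111A at -0.65 runs through the G1/S genes, and the dotted line of FAM111B at -1.64 lies left of every gene of the lists.

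The obstacles that FAM111A is known to act on, and the other proteases and enzymes that clear proteins from DNA, were mostly not called, as were most genes tested, of which 5.07% were called in either direction. TOP1, which encodes topoisomerase I, stood at 20730 ± 2980 normalized counts in NT against 22480 ± 2000 in OXA (log2 change 0.12 with a standard error of 0.12, adjusted p = 0.643 by edgeR). PARP1, whose product can be trapped on DNA, had 22660 ± 1100 and 22340 ± 1160 (log2 change -0.020 with a standard error of 0.086, adjusted p = 0.921 by edgeR). SPRTN, the metalloprotease that degrades DNA-protein crosslinks at forks, had raw counts of 702, 636 and 775 in NT against 705, 615 and 825 in OXA (log2 change 0.056 with a standard error of 0.11, adjusted p = 0.812 by edgeR). The groups overlapped in all 3 genes. PARP1 changed its sign without NT library 1 (0.0075) and SPRTN without NT library 2 (-0.011).

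Of the 35 genes listed for repair of DNA-protein crosslinks and trapped topoisomerases, 34 were tested, 3 were lower and 1 higher at an edgeR adjusted p under 0.05, beside 2.29% and 2.78% of all genes tested. The share higher was thus near that of all genes, and the list's median log2 fold change was -0.052. BRIP1, a helicase of the Fanconi pathway that unfolds proteins crosslinked to DNA, fell from 2563 ± 241 to 1280 ± 136 normalized counts (log2 change -1.0, adjusted p = 0.00617 by edgeR) and kept its call without any single library. POLQ, which encodes polymerase theta (log2 change -0.55, adjusted p = 0.0391 by edgeR), and RFWD3, a ubiquitin ligase of stalled forks (-0.45, edgeR adjusted p = 0.0483), stayed past the threshold only without NT library 1 when single libraries were left out. RFWD3 also missed it with RLE factors, the scaling of DESeq2 (edgeR adjusted p = 0.0502), and with limma-voom (adjusted p = 0.0517), which left 2 lower genes in the list. XPC, a damage sensor of nucleotide excision repair and a known p53 target, rose (log2 change 0.74, adjusted p = 0.00936 by edgeR). Without NT library 3, OXA library 1 or OXA library 2 its log2 change was 0.70, 0.71 and 0.73, but the call was lost (edgeR adjusted p from 0.0509 to 0.0669). Without NT library 2 or 3, or any of the OXA libraries, 1 gene of this list was lower. Lower genes among all tested numbered 146, 69, 19, 32 and 67 in those fits, in that order, against 315 with all libraries. In the paired fit 9 genes of the list were lower, beside 10.9% of all genes tested.

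Among 25 intracellular proteases listed beside them, 21 were tested and none was called by edgeR in either direction. The list holds the trypsin-like HTRA and TYSND1 enzymes as well as caspases and proteases that remove ubiquitin or SUMO. Of the trypsin-like enzymes, HTRA2 and TYSND1 were tested, while HTRA1, HTRA3 and HTRA4 did not pass the filter on low counts, nor did DDI1. At an unadjusted p under 0.05, 5 of the 21 were lower and 2 higher, where 11.1% of all genes tested were lower and 10.7% higher. DESeq2 called 2 lower, where it called 4.63% of all genes lower, and limma-voom 0, where it called 2.11%. The median log2 fold change was 0.051. Among those with the smallest p-values were USP1 (log2 change -0.53, adjusted p = 0.0539 by edgeR), a deubiquitinase of PCNA, CASP2 (-0.35, edgeR adjusted p = 0.0628) and SENP1 (-0.38, edgeR adjusted p = 0.112). All 3 passed the threshold in the paired fit, with an edgeR adjusted p of 0.00958, 0.00762 and 0.0235, and that fit gave 5 lower and 2 higher in the list, where 10.9% of all genes tested were lower and 12.1% higher. Without NT library 1, 2 proteases were lower, where 571 of all genes tested were, against 315 with all libraries.

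Regulators of the E2F and RB families and of the DREAM complex, which controls cell cycle genes downstream of p53 and p21, divided. Of the 31 listed, 30 were tested, 5 were lower, 2 higher and 23 not called at an edgeR adjusted p under 0.05, beside 2.29% lower and 2.78% higher among all genes tested. Their median log2 fold change was -0.17. E2F1, an activator of G1/S genes, fell from 1084 ± 145 to 504.9 ± 55.5 normalized counts (log2 change -1.10, adjusted p = 0.00858 by edgeR), and CCNE2 fell as given above. The 2 that rose were CDKN1A and CCND1, which encodes cyclin D1 (log2 change 0.68, adjusted p = 0.00768 by edgeR). E2F1 and CCND1 each missed the threshold without OXA library 1, with an edgeR adjusted p of 0.0584 and 0.0566. The number of lower genes was 8 without NT library 1, 1 without OXA library 1 and 2 without OXA library 2. Among all genes tested, 571, 19 and 32 were lower in these fits, against 315 with all libraries. In the paired fit 12 of the regulators were lower, beside 10.9% of all genes tested.

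The tested genes around FAM111A and FAM111B had smaller changes than either. Within 500 kb of either gene, GENCODE 44 lists 51 other genes, of which 21 were in the deposited table and 6 passed the filter on low counts. None of the 6 was called by edgeR in either direction, where 5.07% of all genes tested were called, and their median log2 fold change was 0.064. At an unadjusted p under 0.05, 1 of the 6 was lower, where 11.1% of all genes tested were, and DESeq2 called 1 and limma-voom 0. That gene was PATL1, an mRNA decapping factor, at 4530 ± 367 normalized counts in NT against 3491 ± 160 in OXA (log2 change -0.38, adjusted p = 0.0616 by edgeR), which passed the threshold in the paired fit (edgeR adjusted p = 0.00764). Log2 fold changes were 0.063 for DTX4 (edgeR adjusted p = 0.781), 0.099 for OSBP (0.616), 0.065 for ZFP91 (0.808) and -0.20 for CNTF (0.632), each with overlapping groups. ZFP91 changed its sign without NT library 2, NT library 3 or OXA library 1, to between -0.027 and -0.013. Of those in the table that did not pass the filter, most were olfactory receptor and GLYAT genes with 0 to 10 raw counts per library, and ZFP91-CNTF, a read-through of its neighbours, was counted 23, 28 and 11 times in NT against 0, 9 and 0 times in OXA.

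FAM111A-DT, a long noncoding RNA on the minus strand, starts 267 bases inside FAM111A and shares 153 exonic bases with it in opposite orientation. Its raw counts were 66, 62 and 65 in NT against 62, 78 and 82 in OXA, so the groups overlapped. The log2 change was 0.24 with a standard error of 0.19 (adjusted p = 0.542 by edgeR), while that of FAM111A was -0.65 in the same libraries. The libraries were made with a kit that keeps strand, but the strand setting of the counting is not given in the sources used here, so reads in the shared bases may have been counted for either gene.

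**Figure D3:**
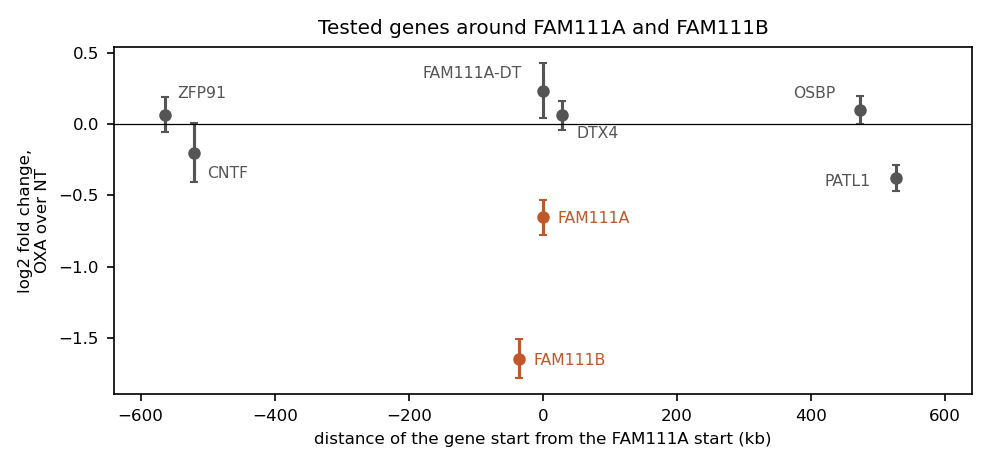
Log2 fold change of OXA over NT, with its standard error, for FAM111A, FAM111B and the 6 tested genes within 500 kb, placed by the distance of each gene start from the FAM111A start in kilobases. The 6 neighbours lie between -0.38 and 0.24, above both FAM111A at -0.65 and FAM111B at -1.64.

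The genes most alike to each member were sought among the other 13726 genes, by the root mean square distance between log2 CPM profiles over the 6 libraries, each centred on its own mean. For FAM111A these were TMPO, which encodes the nuclear lamina protein LAP2, ARL6IP6, DEPDC1, ARNTL2 and NPAT, a co-activator of histone genes in S phase, at distances from 0.022 to 0.041. TMPO stood at 18150 ± 1890 normalized counts in NT against 11570 ± 1160 in OXA, and NPAT 1995 ± 212 and 1315 ± 94.7. The log2 changes of all 5 were from -0.65 to -0.60, close to that of FAM111A, since the distance rests mostly on the difference between the groups.

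For FAM111B the 5 were MYB, IQGAP2, TMSB15A, SESTD1 and ZNF367, at larger distances from 0.148 to 0.201. MYB, which encodes a transcription factor of proliferating progenitor cells, stood at 556 ± 61.1 normalized counts in NT against 181 ± 16.6 in OXA, a log2 change of -1.62 beside -1.64 for FAM111B. ZNF367, a zinc finger gene, had 1694 ± 145 and 689 ± 69.9. TMSB15A has a close paralogue, so its counts depend on how shared reads were divided. FAM111A and FAM111B themselves were at a distance of 0.497, which placed FAM111A at rank 219 of the genes most alike to FAM111B and FAM111B at rank 9268 of those most alike to FAM111A. The ranks differ because few genes had a log2 change as low as that of FAM111B, and many differ from FAM111A by less than FAM111B does.

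**Figure D4:**
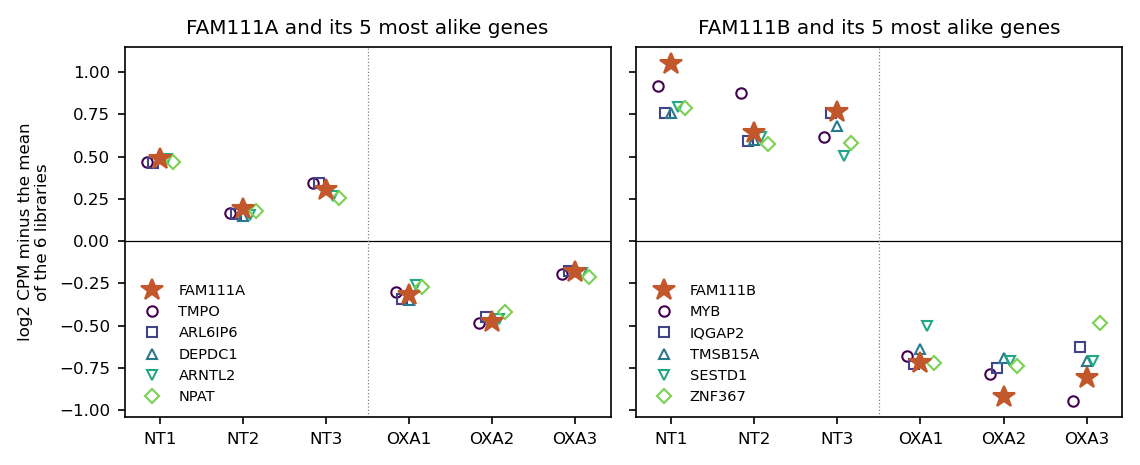
Log2 CPM minus the mean of the 6 libraries for FAM111A (left, star) and FAM111B (right, star) and the 5 genes with the most similar profile to each, in every NT and OXA library. The points of the left panel almost coincide in each library, whereas those of the right panel spread more, with FAM111B highest in NT1 at 1.05 and lowest in OXA2 at -0.92.

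Library totals lay between 32979521 and 40967880 counts, with TMM factors from 0.973 to 1.02. Of 10 epithelial markers, 7 passed the filter on low counts in these libraries, EPCAM at 9083 to 11070 normalized counts among them, while CDX1 was at 0 in every library. The summed level of the 10 was 2160 to 3103 CPM in NT and 3511 to 4151 in OXA, with KRT19 at 6427 to 15690 normalized counts in NT and 24380 to 35640 in OXA, and its part in the results was not tested. Of 8 markers of blood, endothelial, stromal, liver and glial cells, 2 passed the filter, COL1A1 and CD68, and the sum of all 8 was 7.59 to 13.9 CPM in NT and 11 to 13.7 in OXA.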

How the data were processed

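RNA-seq libraries of HCT116 cells, 3 NT and 3 OXA, were grouped by the sample titles. According to the labels and the study's methods, reads were mapped to GRCh38 with STAR 2.7.5b, and Trimmomatic 0.32, RSEM 1.3.3 and DESeq2 are also named. The annotation and strand setting of the counting are not given in the sources used here. The authors deposited a raw count per gene and library, used here as deposited, and a normalized signal, in which the count is multiplied by a factor that differs between genes and libraries. The authors' normalized signal served only as an alternative. Genes were filtered with filterByExpr (minimum count 10, minimum total 15), normalized by TMM and compared by edgeR's quasi-likelihood test (edgeR 4.0.16, limma 3.58.1, R 4.3.3) with Benjamini-Hochberg adjustment over 13727 genes. Normalized counts are counts divided by the TMM library size and multiplied by its mean. CPM are counts scaled to library size, and log2 CPM used a prior count of 2. The steps were tested on simulated data.

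The members and gene lists were chosen with earlier results of these data known. The genes named are FAM111A, FAM111B, PCNA, TOP1, PARP1 and SPRTN, up to 4 genes per list with the smallest p, list genes called against the list's majority where these are 5 or fewer, the tested neighbours, and the 5 genes most alike to each member. Some genes that this rule names are not reported here. Deviations from the group means correlated between NT and OXA libraries of the same number across all genes tested, at 0.547, 0.542 and 0.307, all over 0.1. A paired fit, with that number as a block, is therefore given where it changes a call. The numbers come from the titles, which do not say what they stand for. Alternatives were other normalization factors and filters, DESeq2 1.42.0, limma-voom, the block and each library left out. The MANE length was added after seeing the data. Positions and lengths came from GENCODE 44, promoter windows from RefSeq (GRCh38.p14). The counting errors given in percent cover counting only and do not allow for PCR duplicates, which were not distinguishable. The SDs come from the spread between libraries, and the standard errors from edgeR's fit.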

Additional observations from a re-analysis of the deposited data

How the results depend on the processing

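FAM111A, FAM111B and their ratio kept their direction under every alternative run. Over the fits that each left out 1 library, the log2 fold change ranged from -0.76 to -0.57 for FAM111A and from -1.76 to -1.52 for FAM111B, and the log2 ratio difference from -1.03 to -0.92. Over the other alternatives FAM111A lay between -0.70 and -0.65 and FAM111B between -1.69 and -1.64. Counts were less stable, and the cause was not tested. Genes lower in OXA numbered 493 with upper quartile factors, 511 with library totals only, 479 with at least 1 CPM in 3 libraries, 635 with DESeq2 (636 higher) and 1493 with the replicate block (1664 higher), against 315 lower and 381 higher. Higher genes numbered 348, 350 and 363 in the first 3 of these, so the balance moved toward lower genes. Leaving out 1 library gave 66 to 623 higher and 19 to 571 lower. Lower E2F, RB and DREAM regulators numbered 10 with upper quartile factors, library totals or DESeq2, 8 with the stricter filter and 12 with the block, and 1 to 8 without 1 library. Lower proteases numbered 2 with upper quartile factors, library totals, the stricter filter or DESeq2, 1 with no filter and 5 with the block, and 0 to 2 without 1 library. The block gave 23 lower PCNA partners and 9 lower crosslink repair genes, where leaving out 1 library gave 1 to 18 and 1 to 3. For the G1/S genes the range was 5 to 42. The 1 lower neighbour, PATL1, appeared with upper quartile factors, library totals, the stricter filter, DESeq2 and the block, and 0 without 1 library. Signs turned without 1 library for PCNA (0.0235 and 0.00564, in a range of -0.118 to 0.0235), PARP1 (0.0075, from -0.0916), SPRTN (-0.0112, up to 0.108) and ZFP91 (-0.0268, -0.0159 and -0.0130, up to 0.177), none of them called. By the union of exons, the level per length of FAM111B over FAM111A in NT was 1.49, and by the MANE transcripts, added after seeing the data, 0.907. Depth limits FAM111A-DT, at 62 to 82 raw counts per library, and CNTF, at 48 to 76. The replicate block changed no call of a named gene other than those given for USP1, CASP2, SENP1 and PATL1.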

Other observations

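In the authors' normalized signal, which rescales each gene separately, FAM111A had 2057, 1681 and 1569 in NT libraries 1 to 3 and 1227, 921 and 1125 in OXA libraries 1 to 3. FAM111B had 1596, 1187 and 1294 in NT and 463, 397 and 428 in OXA. The groups did not overlap on this scale either, and the differences in log2(value + 1) were -0.70 for FAM111A and -1.65 for FAM111B. NT library 3 was the lowest untreated library for FAM111A on this scale, whereas NT library 2 was the lowest after TMM normalization.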
